A study of Danio rerio with 16 samples.

Results

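Poly(A) sites that peaked at 72 hours post fertilization (hpf) in the zebrafish, Danio rerio, are described here. They were chosen by their tag counts in 3 libraries of 3P-Seq, a method that sequences the RNA adjoining a poly(A) tail and so reads where the transcript was cut. A site is a cluster of 3′ ends within 10 nt of the position with the most tags, on 1 strand, with at least 4 tags in all. A site was taken when it held at least 5 CPM, the tag count scaled to a library total of 1000000, at 72 hpf and at least 4 times the CPM plus 0.5 of both other libraries. The mitochondrial genome, chromosome 4 from 28 Mb on and a short stretch of chromosome 22 that begins at 25 Mb were left out. The rule gave 1802 sites of 90940 clusters, or 1.98%. Of the 13770 clusters outside the regions left out that reached 5 CPM at 72 hpf, they were 13.1%.

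The study mapped chromatin marks, transcripts and their ends to find long intergenic noncoding RNA genes. The libraries came from wild-type whole embryos at 24 hpf, wild-type whole embryos at 72 hpf and wild-type whole adults of mixed gender, with poly(A) RNA as the starting material and 1 library per stage. The labels give a fixation step with formaldehyde for the embryos, and do not say how many animals were pooled. With no replicate at any stage, no test was possible, so each difference below is between these libraries, and each 95% interval covers counting error only.

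Cleavage and polyadenylation end nearly every messenger RNA and many long noncoding RNAs. A gene with several poly(A) sites in a row can make transcripts with different 3′ ends, and one with a single site can only make more or less of the same end. The stages sampled here differ in development, and which organs or cell types were present or working at each was not examined. In whole animals, fewer cells of a type and less RNA per cell cannot be told apart. Neither sequence nor gene names are given for the sites, which are identified by chromosome, strand and 1-based position on the Zv9 (danRer7) build. Whether a site lies in a 3′ untranslated region, an intron or between genes was not analysed here.

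In tags, the 24 hpf library totalled 7423152, the 72 hpf library 9813481 and that of the adult 7470435. A tag was worth 0.135, 0.102 and 0.134 CPM in that order. A count of 0 tags allows up to 3 tags, which is 0.404 CPM at 24 hpf and 0.402 in the adult. Tags were spread over 235580, 319885 and 517701 distinct genomic intervals, with a median of 5, 5 and 1 tags per interval. Tags on 1 interval can be copies of 1 molecule, and their part in the levels was not tested.

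The sites peaking at 72 hpf took 18.4% of the tags of that library, against 2.38% of the 24 hpf tags and 2.11% of the adult tags. With median-ratio scaling, under which the leading site left the set, the 72 hpf share was 10.7%. Scaled by library totals, the 1802 sites had a summed level of 184267 CPM at 72 hpf, 23818 at 24 hpf and 21136 in adults. The rule fixed 72 hpf as the highest of these levels, and did not set the order of 24 hpf and the adult. The sum was uneven: the leading site held 27.3% of it at 72 hpf, the leading 2 held 40.8%, the leading 20 held 60.6% and the leading 100 held 74.5%. Without the leading 2, the set took 10.9% of the 72 hpf tags, 1.02% of the 24 hpf tags and 0.746% of the adult tags.

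Most of the set was of modest level. The 72 hpf level ran from 5.10 CPM through a median of 16.9 to 50251, with the quartiles at 8.48 and 37.0. At 24 hpf the median was 1.08 CPM and the 90th percentile 9.83. In the adult the median was 1.07 CPM and the 90th percentile 7.36. The typical site was thus present in the other libraries, at a low level. At least 4 tags were found in both other libraries for 1001 sites (55.6%), at 24 hpf alone for 241, in the adult alone for 287 and in neither for 273. No tag at all was found at 24 hpf for 261 sites (14.5%), in the adult for 193 (10.7%) and in both for 53 (2.94%).

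The rule caps the levels in both other libraries. With 0.5 CPM added, which draws low levels together, the 24 hpf and adult levels lay within 2-fold of each other at 1097 sites (60.9%), against 41.2% of the other clusters of at least 5 CPM, which were not so capped. The 24 hpf level was at least 4-fold higher than the adult level at 120 sites and at least 4-fold lower at 54. On the scale of the rule, which adds 0.5 CPM to the other library, the median ratio was 9.45 over 24 hpf and 9.68 over the adult. The smaller of both ratios had a median of 6.78, reached 8 at 701 sites (38.9%) and reached 16 at 162. Without the added 0.5 CPM, the lower bound of the exact 95% interval was above 4-fold over both libraries at 1276 sites (70.8%). These are the counts that chose the sites, and the bound describes them only.

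**Figure D1:**
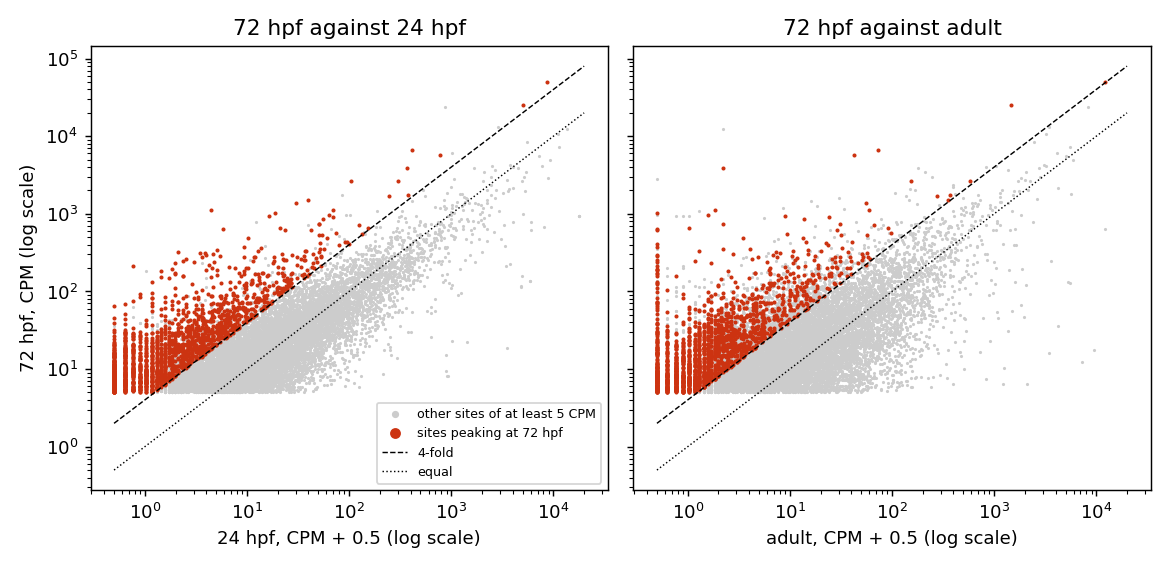
Each point is a poly(A) site of at least 5 CPM at 72 hpf, with its 72 hpf level (CPM, log scale) against its level plus 0.5 CPM at 24 hpf (left) and in the adult (right), also on log scales; red marks the 1802 sites peaking at 72 hpf and grey the 11968 others. A red point lies above the dashed 4-fold line in both panels, and grey points lie above it in one panel when the site was higher than only one of the other libraries.

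Of the 13770 clusters of at least 5 CPM at 72 hpf, 2695 (19.6%) were at least 4-fold over 24 hpf and 4887 (35.5%) were at least 4-fold over the adult, the 1802 among both. That leaves 893 (6.49%) that were 4-fold over 24 hpf only and 3085 (22.4%) over the adult only. The share that met the whole rule changed little with level. It was 12.9% of the clusters of 5 to 10 CPM, 13.0% of those of 10 to 20, 13.2% of those of 20 to 50 and 12.5% of those of 50 to 100. Above that it was 14.0% of the next class up, which held 1219 clusters from 100 CPM, and 15.7% of the 89 clusters at the top.

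Chromosome 17 carried the leading site, on its minus strand at 758922. It held 8630 CPM at 24 hpf, 50251 at 72 hpf and 12219 in adults. At 72 hpf that was 5.03% of all tags (95% Clopper-Pearson interval 5.01% to 5.04%). It was high in all libraries, and its 72 hpf level was 5.82-fold the 24 hpf level (interval 5.78 to 5.87) and 4.11-fold the adult level (4.08 to 4.14). It stood nearly alone: the other 12 same-strand clusters within 5 kb summed to 3.77, 9.48 and 8.43 CPM in the order of stages. This site was in the set by a narrow margin over the adult, and with median-ratio scaling in place of library totals its adult level became 20220 CPM and it no longer met the rule.

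The second site, on the plus strand of chromosome 7 at 31296974, held 4988 CPM at 24 hpf, 24926 at 72 hpf and 1459 in adults. Here the adult was the lowest library, 17.1-fold below 72 hpf (16.8 to 17.4), and 24 hpf was 5.00-fold below it (4.94 to 5.05). Its 22 same-strand neighbours within 5 kb followed the same order, with 215, 717.1 and 98.8 CPM.

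Ranks 3 to 5 had high 24 hpf levels and much lower adult levels. The minus-strand site on chromosome 19 at 5963568 held 409.8, 6635 and 73.1 CPM in the order of stages. The plus-strand site on chromosome 5 at 33855190 held 774.2, 5784 and 41.9 CPM. The plus-strand site on chromosome 12 at 15890506 held 364.4, 3908 and 1.74 CPM. All 3 were highest at 72 hpf and lowest in the adult, where the chromosome 12 site had 13 tags against 38353 at 72 hpf, a ratio of 2246 (1313 to 4218).

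Other leading sites had the reverse order, lowest at 24 hpf. The minus-strand site on chromosome 4 at 12642190 held 3.91 CPM at 24 hpf, 1131 at 72 hpf and 59.3 in adults. It was 289-fold higher than at 24 hpf (201 to 432) and 19.1-fold higher than in the adult (17.3 to 21.0). The plus-strand site on chromosome 1 at 16420983 held 38.9, 1506 and 350 CPM, and that on chromosome 25 at 30180070 held 104.9, 2670 and 574.7 CPM. Both stood far above 24 hpf and only 4.30-fold (4.13 to 4.49) and 4.65-fold (4.50 to 4.80) above the adult. In all, 6 of the 20 leading sites held more CPM in the adult than at 24 hpf and 14 held more at 24 hpf.

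Another 4 of the leading sites had few or no tags in the adult. The minus-strand site on chromosome 24 at 27076107 held 69.0, 1119 and 1.34 CPM, and that on chromosome 2 at 31480049 held 62.9, 980.1 and 1.07 CPM. The minus-strand site on chromosome 5 at 33936243 held 50.7, 746.3 and 1.74 CPM. The minus-strand site on chromosome 9 at 23161853 had 136 tags at 24 hpf, 10047 at 72 hpf and 0 in adults. Each of these 4 held under 100 CPM at 24 hpf and had 13 adult tags or fewer. The other leading sites were on chromosome 8 (plus strand, 49824055), chromosome 3 (plus, 23528932), chromosome 12 (minus, 18777976), chromosome 16 (minus, 15663118), chromosome 2 (minus, 363197), chromosome 9 (minus, 11830594), chromosome 14 (plus, 2809732) and chromosome 5 (minus, 29511201). They ran from 2675 down to 750.7 CPM at 72 hpf. Median-ratio scaling removed 5 of the 20 from the set, those at 758922, 30180070, 23528932, 18777976 and 16420983, each of them between 4.11- and 6.15-fold over the adult.

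**Figure D2:**
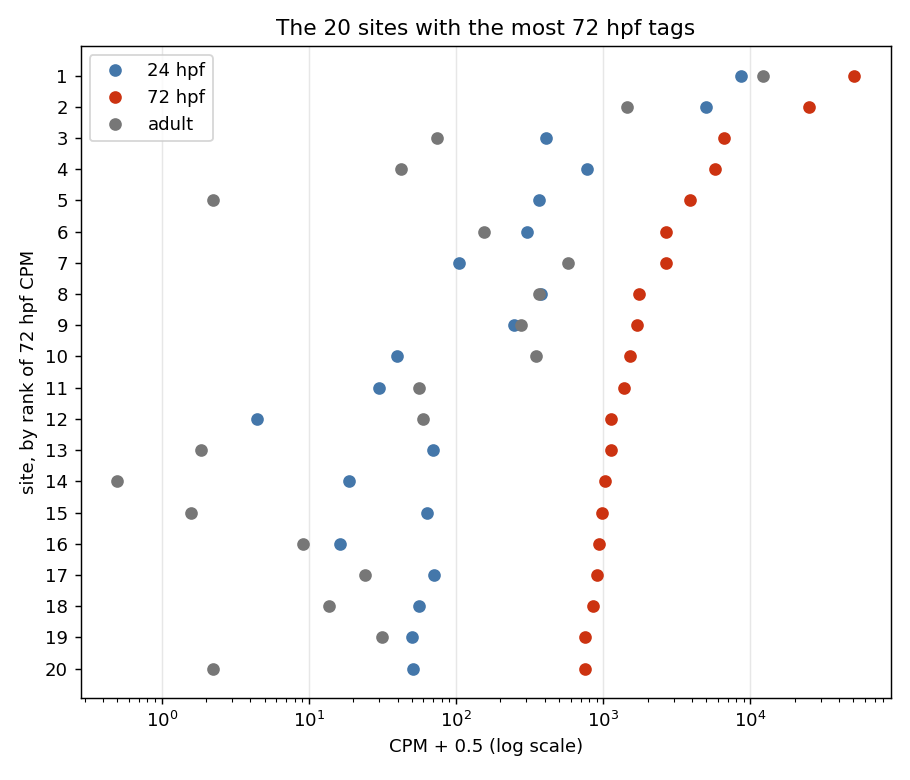
The 20 sites peaking at 72 hpf with the most tags there, ranked on the vertical axis, with the level plus 0.5 CPM of each in the 24 hpf, 72 hpf and adult libraries on a log axis. The 72 hpf points run from 50251 to 746.3 CPM, and the adult points spread from 12219 CPM at rank 1 to 0 at rank 14, wider than the 24 hpf points.

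The 10 sites with the largest smaller ratio among those with at least 5 distinct intervals included 5 in a single stretch of chromosome 9 and 2 in a stretch of chromosome 23, which are the largest groups of the set. Outside these, the plus-strand site on chromosome 15 at 13397663 had 0 tags at 24 hpf, 387 at 72 hpf and 0 in adults. Against a floor of 3 tags per library, its 39.4 CPM was higher by at least 97.6-fold over 24 hpf and by at least 98.2-fold over the adult. The minus-strand site on chromosome 10 at 23048767 had 19, 2338 and 0 tags. It was 93.1-fold over 24 hpf (59.5 to 155) and at least 593-fold over the adult. The plus-strand site on chromosome 6 at 41114495 had 7, 1826 and 15 tags, and was 197-fold over 24 hpf (95.6 to 492) and 92.7-fold over the adult (56.0 to 166). These 3 sites were each read from 14 to 20 distinct intervals at 72 hpf.

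At the threshold of level, 17 sites of the set had 50 tags at 72 hpf (5.10 CPM), and 17 clusters that met both ratios had 49 tags (4.99 CPM) and were not taken. At the threshold over 24 hpf, the sites just inside had ratios of 4.004, 4.009 and 4.013 with 0.5 CPM added (chromosome 10 at 19596749, chromosome 17 at 39089857 and chromosome 17 at 45515250). Those just outside had 3.993, 3.992 and 3.987 (chromosome 25 at 32122604, chromosome 6 at 908502 and chromosome 9 at 218152). Over the adult, the ratios just inside were 4.003, 4.021 and 4.032 (chromosome 15 at 36722134, chromosome 20 at 23172008 and chromosome 7 at 54278793). Those just outside were 3.975, 3.971 and 3.970 (chromosome 7 at 36001512, chromosome 16 at 22328039 and chromosome 25 at 18421718).

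The number of distinct intervals behind a site was not itself used by the rule, and it shows how many different fragments were read. Only 3 sites of the set rested on 1 interval at 72 hpf and 93 on fewer than 5. At least 5 were found for 1709 sites (94.8%) and at least 10 for 1066 (59.2%), close to the 96.0% and 61.0% of the other clusters of at least 5 CPM. The median site had 11 intervals at 72 hpf, 2 at 24 hpf and 4 in adults. The order of these medians was largely fixed by the choice of sites, since a library cannot have more intervals than tags. The share of a library's intervals at a site was at least 2-fold higher at 72 hpf than in both others for 1167 (64.8%). With intervals in place of tags, 382 sites (21.2%) met the full rule. Neither count was made for the other clusters of at least 5 CPM, and both are bounded by the tags that chose the sites. Intervals with a common 3′ end differ only in length, so a site can have few of them however many tags it holds. Sites of the set with at least 100 tags at 72 hpf had a median of 22.9 tags per interval, and the other clusters of that depth 21.5.

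The sites around a site of the set were measured to see whether ends nearby were also higher at 72 hpf. A locus here is all same-strand clusters within 5 kb, and without annotation these may belong to different genes. Another same-strand cluster lay within 5 kb of 1412 sites (78.4%), against 86.5% of the other clusters. When all same-strand tags within 5 kb were summed with the site's own, the sum met the rule at 1514 sites (84.0%). That count includes the 390 sites with no neighbour, which pass by construction, and among the 1412 with neighbours it was 1124 (79.6%). The sum also holds the site's own tags, for which it was chosen, so the neighbours alone say more. Of 628 sites whose neighbours within 5 kb reached 5 CPM, the neighbours met the rule at 351 (55.9%). For the other clusters of at least 5 CPM it was 162 of 4199 (3.86%). These neighbours include clusters under 50 nt away, which may be part of the same end, and other sites of the set. The locus sum missed the rule at 288 sites of the set, and in 118 of these the neighbours together held more 72 hpf tags than the site.

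The neighbours were also measured without the site itself. Same-strand clusters 50 to 5000 nt away summed to at least 5 CPM at 72 hpf for 523 sites of the set and for 3433 of the other clusters. For the set, the neighbours' sum was at least 4-fold over both libraries in 282 cases (53.9%), over 24 hpf only in 39, over the adult only in 117 and over neither in 85 (16.3%). For the other clusters, it was over both in 142 cases (4.14%) and over neither in 2429 (70.8%). The median ratio of the neighbours, with 0.5 CPM added, was 5.76 over 24 hpf and 8.68 over the adult for the set, and 1.12 and 1.86 for the others. Some of these neighbours were themselves in the set. With those left out, 355 sites had neighbours of 5 CPM, which were at least 4-fold over both libraries in 95 cases (26.8%), against 32 of 3331 (0.961%) for the other clusters. Their median ratios were 3.23 over 24 hpf and 5.99 over the adult, against 1.09 and 1.77.

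The 5 sites of highest level whose locus sum missed the rule show what the neighbours held. On the plus strand of chromosome 1, the site at 1493199 held 52.9 CPM at 24 hpf, 278.8 at 72 hpf and 30.7 in adults. Its neighbours within 5 kb summed to 98.8, 93.9 and 58.5 CPM. The site was thus highest at 72 hpf while its neighbours were near-level between the embryo libraries. The plus-strand site on chromosome 6 at 29508836 held 124.6, 719.2 and 65.6 CPM and its neighbours 143.7, 332.8 and 82.5. Here the neighbours were also highest at 72 hpf, by less. The remaining 3, on chromosome 7 (minus strand, 9179704), chromosome 13 (plus, 22692898) and chromosome 14 (minus, 18624662), stood only 4.14-, 4.12- and 4.11-fold over 24 hpf, and neighbours of 7.74 to 25.9 CPM at 72 hpf were enough to take their sums below 4-fold.

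In order along the strand, more sites of the set than of the other clusters had an end before them and none after, a difference that was not tested. A same-strand site of at least 4 tags at 72 hpf lay 50 to 5000 nt away for 68.7% of the set and 67.0% of the other clusters. It lay upstream only for 637 sites of the set (35.4%), against 25.6% of the others, and downstream only for 222 (12.3%), against 19.7%. Sites on both sides were found for 21.0% and 21.7%. A cluster under 50 nt away, which may be part of the same end, was found for 473 sites (26.3%), against 36.8% of the others. On 1 strand and within 5 kb, the sites of the set formed 1617 runs. Of these, 1465 were single sites, 128 were pairs and 24 held at least 3, with 6 at most. Runs were not counted for the other clusters.

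Use of the site against a neighbour was measured as its share of the tags of both, for neighbours outside the set 50 to 5000 nt away. The site and its neighbour together had at least 20 tags in each library compared, so the neighbour itself could have 0. Against 24 hpf, 1579 such pairs (610 sites of the set) could be measured. The site's share was at least 20 percentage points higher at 72 hpf in 287 (18.2%), at least 20 points lower in 0, and within 20 points in 1292. Against the adult, 1243 pairs (486 sites) gave 216 higher (17.4%), 2 lower and 1025 within 20 points. The median change was 0 points in both comparisons. A neighbour with few or no tags keeps the site's share high in each library. A small change is thus no sign that both ends were in use. Because the rule asks that the site be higher at 72 hpf and the neighbour was not in the set, the lack of lower shares was fixed in part by how sites were chosen. The site lay downstream of its neighbour in 207 of the 287 pairs (72.1%) and in 163 of the 216 (75.5%). The downstream share among all measured pairs was not counted, so a link between position and a higher share cannot be read from these values. Sites of the set had an end upstream only in 637 cases and downstream only in 222, and a site can be in several pairs.

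In the pairs with the largest change against the adult, the main end of the pair at 72 hpf was not its main end in the adult. Without annotation, the ends of a pair may belong to different genes. On the plus strand of chromosome 11, the site at 31127551 had 934 of 941 tags of its pair with 31128901 at 72 hpf (99.3%, 98.5% to 99.7%) and 13 of 17857 in the adult (0.0728%, 0.0388% to 0.125%). In CPM the upstream site went with 0.674, 95.2 and 1.74 through 24 hpf, 72 hpf and adult, and the downstream neighbour with 0.269, 0.713 and 2389. So each end was the main one of the pair in a different library, 1350 nt apart. Chromosome 9 had a plus-strand site at 23038179 with 202 of 202 tags of its pair with 23035118 at 72 hpf and 0 of 334 in the adult, and 1 tag at 24 hpf. Chromosome 14 had a minus-strand site at 34390832 with 54 of 54 tags of its pair with 34393477 at 72 hpf and 0 of 72 in the adult. On chromosome 10, the plus-strand site at 19596749 had 62 of 62 at 72 hpf and 3 of 3136 in the adult in its pair with 19600566. The fifth pair was the cluster at 31127563 on chromosome 11, 12 nt from the first site and with the same neighbour. At 24 hpf these 5 pairs had 16 tags or fewer each, which leaves wide intervals. The chromosome 14 site had 1 of 16 (0.158% to 30.2%), below its share at 72 hpf, and the chromosome 10 site 8 of 11 (39.0% to 94.0%), above its share in the adult.

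Against 24 hpf the largest changes were at lower levels. The plus-strand site on chromosome 19 at 40016367 had 0 of 21 pair tags at 24 hpf and 66 of 72 at 72 hpf (91.7%, 82.7% to 96.9%), with the neighbour at 40016581. That on chromosome 6 at 12781816, also plus-strand, had 2 of 47 tags of its pair with 12777521 at 24 hpf (4.26%, 0.520% to 14.5%) and 254 of 303 at 72 hpf (83.8%, 79.2% to 87.8%). In that pair the neighbour held 6.06 CPM at 24 hpf and 4.99 at 72 hpf, so its own level was similar while the site's was higher. The other 3 were plus-strand sites on chromosome 10 at 27797558 (0 of 23 and then 78 of 88 tags), chromosome 23 at 17949752 (4 of 31 and then 280 of 294) and chromosome 8 at 55493935 (3 of 21 and then 64 of 67).

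The 2 pairs with a share at least 20 points lower at 72 hpf were both against the adult. The first, at 35618726 on the plus strand of chromosome 14, had 13 of 26 adult tags of its pair with 35619401 and 96 of 585 at 72 hpf (16.4%, 13.5% to 19.7%). There the neighbour was the main end at 72 hpf, with 49.8 CPM against 9.78. The second, at 30795216 on the plus strand of chromosome 18, had 18 of 21 adult tags of its pair with 30795595 and 161 of 277 at 72 hpf (58.1%, 52.1% to 64.0%). The adult shares rest on few tags, and their intervals were wide, 29.9% to 70.1% and 63.7% to 97.0%.

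**Figure D3:**
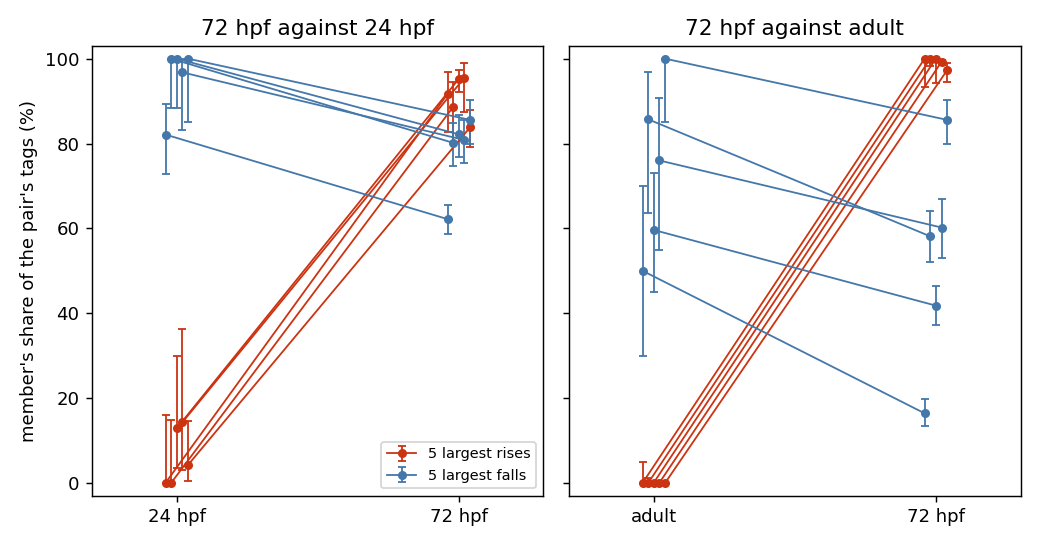
The share of a pair's tags at the site peaking at 72 hpf (percent, with exact 95% Clopper-Pearson intervals as bars), at 24 hpf and 72 hpf (left) and in the adult and at 72 hpf (right), for the 5 pairs with the largest higher share (red) and the 5 with the largest lower share (blue) in each comparison. The red lines run from at most 14.3% to over 80%, and the blue lines on the left are all shorter than 20 points.

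Position along the chromosomes was not part of the rule. A group was taken as at least 3 sites of the set, each within 50 kb of the next on either strand. There were 50 groups with 200 of the 1802 sites (11.1%), of which 36 lay on 1 strand and 16 spanned under 5 kb. The same rule turned to the other libraries gave 585 sites peaking at 24 hpf, with 144 (24.6%) in groups, and 2601 sites peaking in the adult, with 690 (26.5%) in groups. A group held at most 10 sites in each of those sets and 31 in the 72 hpf set. The 72 hpf set thus had the smallest share in groups of the 3 sets and the group with the most sites. The sets differ in number and in level, and the difference in share was not tested.

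The group of 31 lay on the minus strand of chromosome 9 from 23124494 to 23377942, a span of 253 kb, and every one of the 31 clusters of at least 5 CPM there was in the set. Together they held 71.5 CPM at 24 hpf, 4585 at 72 hpf and 1.34 in adults, from 531, 44997 and 10 tags. The 72 hpf sum was 64.1-fold the 24 hpf sum (58.8 to 70.0) and 3425-fold the adult sum (1862 to 7144). All 10 adult tags fell at 1 site, the one at 23377942 at the edge of the group, and the other 30 sites had 0 adult tags. At 24 hpf only 3 of the 31 had no tag.

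Each site of the chromosome 9 group was chosen for its pattern over the stages, and the levels varied widely among them. Their 72 hpf levels ran from 5.40 CPM through a median of 74.2 to 1024, and their 24 hpf levels from 0 through 1.35 to 18.3. The highest was 23161853, with 18.3, 1024 and 0 CPM, and it was also the highest at 24 hpf. Next came 23372001 with 5.39, 634.9 and 0 CPM, 23220540 with 8.89, 368.6 and 0, and 23214820 with 4.98, 288.5 and 0. The fifth, 23350948, had 2 tags at 24 hpf, 2107 at 72 hpf and 0 in adults, the largest ratio over 24 hpf in the group at 797 (220 to 6585). Over the 28 sites with tags in both embryo libraries the ratio ran from 17.6 to 797 with a median of 57.6.

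Most sites of the chromosome 9 group lay well apart. Of the 30 gaps between neighbouring sites, 22 were at least 1 kb, with a median of 8.29 kb and a range of 1.07 to 26.6 kb, and 8 were under 1 kb. Some of the short gaps, as between 23124494 and 23124505 or 23371987 and 23372001, were just beyond the 10 nt window. The count of 31 thus depends in part on that window, and whether such sites are 1 end was not tested. The sites were read from 4 to 33 distinct intervals each. Besides the 31 sites, the stretch held 29 more minus-strand clusters and 2 plus-strand clusters. The 29 were low, with a sum of 3.10 CPM at 24 hpf, 37.0 at 72 hpf and 0 in adults. No 2 of the 31 sites were near-equal in their tags over intervals (totals within 1.1 times, chi-square per interval under 1.6), measured for those with at least 200 tags. All 31 sites also met the rule with median-ratio scaling.

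**Figure D4:**
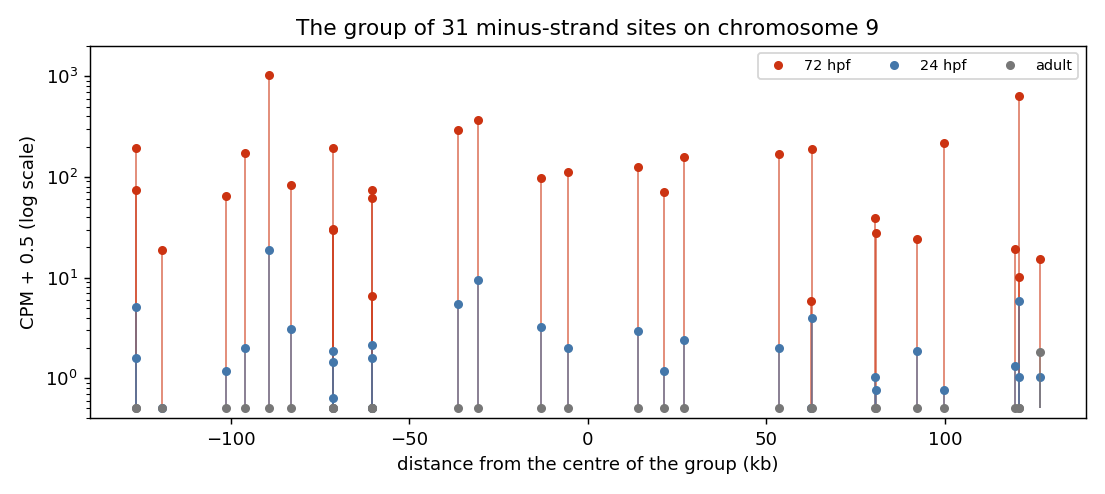
The 31 minus-strand sites of the chromosome 9 group by distance from the centre of the group (kb), with the level plus 0.5 CPM of each at 24 hpf, at 72 hpf and in adults on a log axis. The 72 hpf points lie above the 24 hpf points at all 31 sites, and the adult points lie at the bottom, which is 0 tags, at 30.

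The next groups were smaller and lay on both strands. On chromosome 23 from 17947897 to 17985493, 9 sites (4 plus, 5 minus) held 9.97 CPM at 24 hpf, 470.7 at 72 hpf and 2.81 in adults, and all but the last, at 17985493, had 0 adult tags. The minus-strand site at 17951794 led with 26, 2925 and 0 tags, which was 85.1-fold over 24 hpf (58.0 to 131) and at least 742-fold over the adult. The plus-strand site at 17947897 had 1, 670 and 0 tags. Plus-strand ends at 17947897 to 17949752 and minus-strand ends at 17951780 to 17952776 thus lay within 5 kb of each other, with the plus-strand ends to the left. Each was chosen for being higher at 72 hpf, so their shared pattern was in part fixed by the rule. The site at 17985493 stood apart in place and in pattern, with 5.52, 25.5 and 2.81 CPM.

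On chromosome 3 from 47324748 to 47342054, 7 sites (6 plus, 1 minus) held 7.95, 177 and 6.16 CPM. The plus-strand site at 47325120 led with 0.404, 93.7 and 3.75 CPM, and 47325109, 11 nt away, held 0.135, 25.6 and 1.34. That distance is just beyond the 10 nt window, and whether they are 1 end was not tested. The minus-strand site at 47342054 held 7.28, 32.5 and 1.07 CPM, and so was only 4.47-fold over 24 hpf (3.34 to 6.08), where the plus-strand sites had 3 tags or fewer. Groups of 6 lay on the minus strand of chromosome 1 from 57107233 to 57149843, with 8.89, 213.4 and 2.14 CPM, and on the plus strand of chromosome 24 from 43051019 to 43051289, with 15.8, 178 and 2.01 CPM. In the chromosome 1 group, the sites at 57149843 and 57116532 were near-equal over their intervals, with 201 and 209 tags, and whether the same reads were counted at both was not tested. The chromosome 24 group spanned 0.27 kb, so the count of sites there depends on the clustering window.

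Over whole chromosomes, the share of clusters of at least 5 CPM that were in the set ran from 9.69% on chromosome 14 to 18.8% on chromosome 9. Chromosome 9 led because of its group: without the 31 sites, 65 of its 479 clusters were in the set (13.6%), near the 13.1% of all clusters. Chromosome 11 (16.6%) and chromosome 1 (16.2%) came next, and chromosome 16 (10.4%) and chromosome 22 (10.5%) were low. By strand the set had 864 plus and 938 minus sites, with 40 on scaffolds not placed on a chromosome.

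Cleavage at a site spreads over several neighbouring positions, and how far is a property that the rule did not use. Sites with at least 100 tags at 72 hpf were compared, which were 1218 of the 1802. Their leading position held a median of 79.5% of the tags, with the 10th percentile at 48.9% and the 90th at 98.9%. The other 8001 clusters of that depth had a median of 80.5%. At least 90% of the tags fell at the leading position for 33.6% of the set and 34.2% of the others, and under 50% for 10.8% of each. The median site used 4 positions, in the set as in the others. The central 90% of the tags within 25 nt, which can include tags of neighbouring clusters, spanned a median of 6 nt in both. In their own libraries, 313 sites peaking at 24 hpf had a median of 85.5% and 1419 peaking in the adult 80.3%. Read in those same libraries, sites of the 72 hpf set had a median of 85.9% at 24 hpf (140 sites) and 85.8% in the adult (104 sites). None of these differences was tested.

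**Figure D5:**
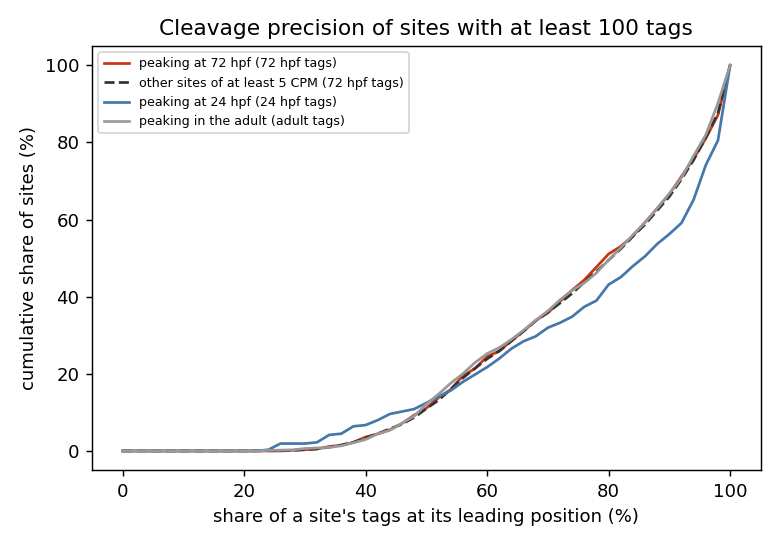
The cumulative share of sites (percent) against the share of a site's tags at its leading position (percent), for sites with at least 100 tags in the library named. The line of the 1218 sites peaking at 72 hpf runs over that of the 8001 other sites, and that of the 313 sites peaking at 24 hpf lies to the right of both from about 55% on.

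Where another library had enough tags to compare, the position used most at a site was mostly the same there as at 72 hpf. With at least 20 tags at 24 hpf, 505 of 573 sites had the same leading position as at 72 hpf (88.1%), and with at least 20 adult tags 409 of 443 (92.3%). These are the sites of the set with the higher levels outside 72 hpf. All tags of the cluster fell at 1 position for 73 of the 1218 sites. The deepest were on chromosome 19 (plus strand, 41963239, 819 tags), chromosome 6 (plus, 55000845, 506 tags) and chromosome 16 (minus, 22395586, 451 tags). Next came chromosome 18 (plus, 1571758, 437 tags) and chromosome 9 (minus, 34131729, 355 tags). Tags of neighbouring clusters are not in this share. Within 25 nt, the central 90% of tags spanned 12 nt at this chromosome 9 site and 1 nt at each of the others named. At the other end, the leading position held 26.3% of 194 tags for the minus-strand site on chromosome 8 at 14519275 and 27.9% of 122 tags for the plus-strand site on chromosome 18 at 49790913. It held 28.4% of 883 tags at 29639073 on chromosome 23 (minus strand), 28.9% of 142 tags at 1416134 on chromosome 6 (plus) and 30.8% of 1044 tags at 29809549 on chromosome 20 (plus). The smaller of both ratios, with 0.5 CPM added, ran from 4.02 to 16.2 at these 5 sites of lowest leading share. At the 5 named sites with all tags of the cluster at 1 position it ran from 6.29 to 12.3.

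Ends on the opposite strand within 100 nt, where transcripts run toward each other, were found for 77 sites of the set (4.27%), against 691 of the other clusters (5.77%). The partner held at least 5 CPM at 72 hpf in 32 cases, and in 8 of these (25%) the partner was in the set as well. Where both ends are in the set, the pair can be counted from each side, so these cases may come from fewer places. Over all clusters of at least 5 CPM at 72 hpf that share was 13.1%, and the difference was not tested.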

How the data were processed

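Zebrafish 3P-Seq was analysed in 3 of the 16 samples of the series, with the other 13 not analysed here. The deposited files give genomic intervals with a strand and a whole number, which was read as a tag count that the authors did not normalise; no header says what it is. Reads were aligned with Bowtie to Zv9 (danRer7), per the submitters' processing notes. Its version, trimming and the filter on multiple alignments were not given in the sources used here. File headers name the build and an offset of 1 for display, and positions include it.

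The 3′ end was the right side of a plus-strand interval and the left side of a minus-strand one. Ends of the 3 libraries were pooled, and each position, from the one with the most tags down, absorbed those within 10 nt. Counts were divided by the library total of 7423152, 9813481 or 7470435 tags and multiplied by 1000000. Ratios have exact conditional Clopper-Pearson 95% intervals, and lower bounds against 0 tags used a floor of 3 tags per library. Tags copied by PCR are not independent, so intervals cover counting error only and are too narrow. No test was made, since there was 1 library per stage.

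Named sites are the leading 20 by level, the 10 with the largest smaller ratio and the first 5 of the 3 largest groups. Others are the 5 with the lowest and the 5 with the highest share of tags at the leading position. The 5 pairs with the largest change each way, and 3 sites on each side of a threshold, were also named. The sites, lists and measures were chosen with earlier results of these data known. Chosen after these values were seen were the neighbour sum from 50 to 5000 nt, the sites whose locus missed the rule, the smaller groups of 6 and the search for near-equal pairs. Alternatives were other clustering, thresholds, added CPM, scaling by the median ratio over clusters with tags in all libraries, thinning to the smallest library and distinct intervals. The clustering and the rule were also run on simulated data. Sites there lay well apart and had no PCR copies, a simpler setting than these libraries. Scripts ran in Python 3.11.15 with numpy 2.4.6, pandas 2.3.3, scipy 1.17.1 and matplotlib 3.10.9. No genome or annotation of the build was used here.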

Additional observations from a re-analysis of the deposited data

How the results depend on the processing

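The number of sites, 1802 as reported, was 701 when 8-fold was asked, 3910 at 2-fold and 4509 with distinct intervals in place of tags. The last set held only 382 of the 1802 sites, so most of it was other clusters. There 1 interval weighs far more than 1 tag. In that set 81.8% of the sites had no tag in the other libraries and 19.8% had at least 5 intervals. Elsewhere the number ran from 1222 at 10 CPM, through 1284 with median-ratio scaling, to 2050 with 0.1 CPM added. Median-ratio scaling moved all ratios of 72 hpf by -0.24 (log2) over 24 hpf and by -0.73 over the adult; it took 518 sites out, added 0, and brought the set's share of 72 hpf tags from 18.4% to 10.7%. The share of sites in groups, 11.1%, was 8.59% at 10 CPM, 24.6% with distinct intervals, 8.16% when groups were joined at 20 kb and 16.8% at 100 kb. The share whose locus sum met the rule, 84.0%, was 88.1% at 10 CPM, 43.5% with distinct intervals, 89.3% for loci of 2 kb and 78.9% for loci of 10 kb. A stricter or looser bar or distance moves a count by construction; otherwise the cause was not tested. No paired analysis was possible because each stage has 1 library. Depth limits the ratios of sites with 3 tags or fewer in another library, which a count of 0 also allows.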

Other observations

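Among the 762 sites peaking at 72 hpf with at least 200 tags there, 6 pairs had near-equal tags over their intervals, that is, totals within 1.1 times and a chi-square per interval under 1.6. They hold 12 sites, and 5 of the 6 pairs lie on 1 chromosome and strand. The deepest, on the minus strand of chromosome 23, had 2298 tags at 39945020 and 2433 at 40104097, which are 159 kb apart. The others were on chromosome 3 (minus strand, 50838854 and 50719430, 608 and 643 tags), chromosome 22 (plus, 4757834 and 4820963, 408 and 430 tags), chromosome 11 (minus, 38217692 and 38053631, 374 and 386 tags), chromosome 1 (minus, 57149843 and 57116532, 201 and 209 tags) and chromosomes 2 and 21 (minus, 41829534 and 41917714, 203 and 223 tags). Whether the same reads were counted at both sites of a pair was not tested.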
